A study of Mus musculus with 24 samples.

Results

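The tumour necrosis factor (TNF) ligand and receptor superfamily was followed through cultured arterial muscle cells with and without the calcium pump PMCA4. Its members were taken by symbol from the platform annotation of the arrays, as every gene named Tnfrsf or Tnfsf with a number and at most one letter, plus Tnf, Ltb, Fas and Cd40. This gave 57 of 25697 probes, which stand for 34 of 16593 named genes. Only 8 of these 34 genes had a probe above background on at least 4 arrays, and they are the ones with measurable levels here: Tnfrsf11b, Tnfrsf21, Fas, Tnfrsf10b, Tnfrsf1a, Tnfrsf12a, Tnfrsf22 and the single ligand Tnfsf18.

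RNA came from primary vascular smooth muscle cells of the carotid artery of male C57bl6 mice and was hybridised to 24 one-colour Illumina bead arrays. The groups were PMCA4 knockout cells electroporated with DNA for PMCA4b, a splice form of the pump (5 arrays, called PMCA4b cells below), knockout cells with vector B (4 arrays), knockout cells with vector A (5 arrays), knockout cells with no stated DNA (5 arrays, KO) and wild-type cells (5 arrays, WT). Every culture was first synchronized, then given serum plus PDGF-BB, a growth factor for smooth muscle, and collected in late G1/S. The labels give no age, do not say how the vectors differ, and do not say whether replicates are separate cultures or animals, so the spread behind the p-values is that between arrays and could be technical alone. KO cells were not electroporated, according to the labels, so comparisons of vector cells with KO cells include the electroporation itself.

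Superfamily receptors bind trimeric ligands through cysteine-rich repeats outside the cell. Receptors with a death domain (among them Fas, Tnfrsf1a, Tnfrsf10b and Tnfrsf21) can start caspase-dependent death, and Tnfrsf1a and receptors without that domain recruit TRAF adaptors that activate NF-kB and MAP kinases. A further class, the decoys, binds ligand without passing on a signal. Osteoprotegerin, the product of Tnfrsf11b, is a secreted decoy for the ligands RANKL and TRAIL, and mice that lack it are known for arterial calcification as well as bone loss.

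Between 9496 and 10406 probes were detected on each array (detection p under 0.01), and genes had a median residual SD of 0.123 (log2). All levels below are log2 intensities after background correction and quantile normalization. A probe's level was not set against another probe's. The deposited columns run in 3 sets of 8. PMCA4b, KO and WT arrays lie in all 3 sets, whereas all vector A arrays lie in set 3 and all vector B arrays in sets 1 and 2. Set 3 holds 1 array each of PMCA4b, KO and WT cells, so a value within it rests on single arrays. The vector groups share no set. A fit with the set as a block therefore joins them only through PMCA4b, KO and WT arrays, which are single in set 3. The headers do not say what a set is. The targeted gene Atp2b4 had a kept probe with levels of 5.88 to 7.27 in PMCA4b cells, 6.45 to 6.99 in vector B cells, 6.41 to 6.81 in vector A cells, 6.63 to 7.07 in KO cells and 6.55 to 7.13 in WT cells. No source used here places that probe relative to the deleted part, so it checks neither the deletion nor the returned DNA. Of 8 smooth muscle markers only Acta2, Tagln and Smtn were kept, and Myh11, Cnn1, Lmod1, Des and Myocd were detected on 0 of 24 arrays.

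RefSeq (build GRCm38.p6) gave a promoter window for 5 of the 8 members. The windows of the 3 death-domain receptors among them are shown, since these differ in which group they are lowest in. Each run is the 250 bases before the annotated start, 5′ to 3′ on the strand of the gene, and capitals mark matches to a motif on either strand. The motifs searched were the TATA box, spelled TATAAA, and the GC box, spelled GGGCGG. The AP-1 site was searched as TGANTCA. The E box was searched as CACGTG, and the kappaB site by its usual consensus.
Tnfrsf21, chr17:43016305-43016554, plus strand: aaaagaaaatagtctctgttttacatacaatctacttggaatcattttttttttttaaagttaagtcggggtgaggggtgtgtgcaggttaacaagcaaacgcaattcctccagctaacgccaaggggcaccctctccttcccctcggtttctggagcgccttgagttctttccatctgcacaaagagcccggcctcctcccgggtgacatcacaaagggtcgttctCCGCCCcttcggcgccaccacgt
Fas, chr19:34290409-34290658, plus strand: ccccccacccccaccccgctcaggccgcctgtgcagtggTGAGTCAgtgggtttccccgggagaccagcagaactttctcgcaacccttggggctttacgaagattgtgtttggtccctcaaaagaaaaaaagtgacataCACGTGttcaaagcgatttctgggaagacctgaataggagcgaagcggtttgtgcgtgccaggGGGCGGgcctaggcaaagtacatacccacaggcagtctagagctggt
Tnfrsf1a, chr6:125349473-125349722, plus strand: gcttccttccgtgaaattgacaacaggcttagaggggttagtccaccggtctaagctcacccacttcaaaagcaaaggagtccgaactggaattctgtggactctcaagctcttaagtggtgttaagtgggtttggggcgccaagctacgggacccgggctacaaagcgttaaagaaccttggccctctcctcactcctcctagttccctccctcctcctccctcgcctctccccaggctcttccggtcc
The window of Tnfrsf21 holds 1 GC box and that of Tnfsf18 1 TATA box. The window of Fas holds 1 AP-1 site, 1 E box and 1 GC box, and the marked matches do not overlap. The window of Tnfrsf12a holds 5 GC boxes, and that of Tnfrsf1a none of the motifs, so it has no capitals. Over 32851 RefSeq windows of the same length, 12.4% hold a TATA box, 32.7% a GC box, 6.75% an AP-1 site, 6.02% an E box and 3.90% a kappaB site. A match describes letters only and is not evidence of a bound factor.

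Tnfrsf11b, the osteoprotegerin gene, had the widest range of the 8 members. The gene has 1 probe on the platform, so no second probe could be set beside its levels. It read 10.58, 10.62, 10.71, 10.56 and 10.56 in PMCA4b cells, 12.98, 13.00, 13.05 and 13.01 in vector B cells, and 14.19, 14.22, 14.17, 14.15 and 14.26 in vector A cells. It read 9.22, 9.63, 9.66, 9.60 and 9.47 in KO cells and 6.25, 5.80, 5.79, 6.37 and 5.88 in WT cells, where it was detected on 0 of 5 arrays. The 5 groups did not overlap, and the order from high to low was vector A, vector B, PMCA4b, KO and WT. Every knockout-derived group thus had a detectable level and WT cells did not. KO cells were at least 8.61-fold above WT cells (limma adjusted p = 1.3e-19), a bound set against the dimmest detected probes of each WT array. PMCA4b cells were 7.99-fold below the average of both vector groups (log2 -3.00, SE 0.083, limma adjusted p = 8.71e-20), 12.1-fold below vector A cells and 5.29-fold below vector B cells. Vector cells were 17.0-fold above KO cells (limma adjusted p = 2.56e-22), and vector B cells 2.28-fold below vector A cells (limma adjusted p = 9.39e-10). With the column set as a block, that last log2 difference was -1.28, against -1.19 without it. Within single sets, log2 differences of PMCA4b from vector cells lay between -3.63 and -2.39.

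**Figure D1:**
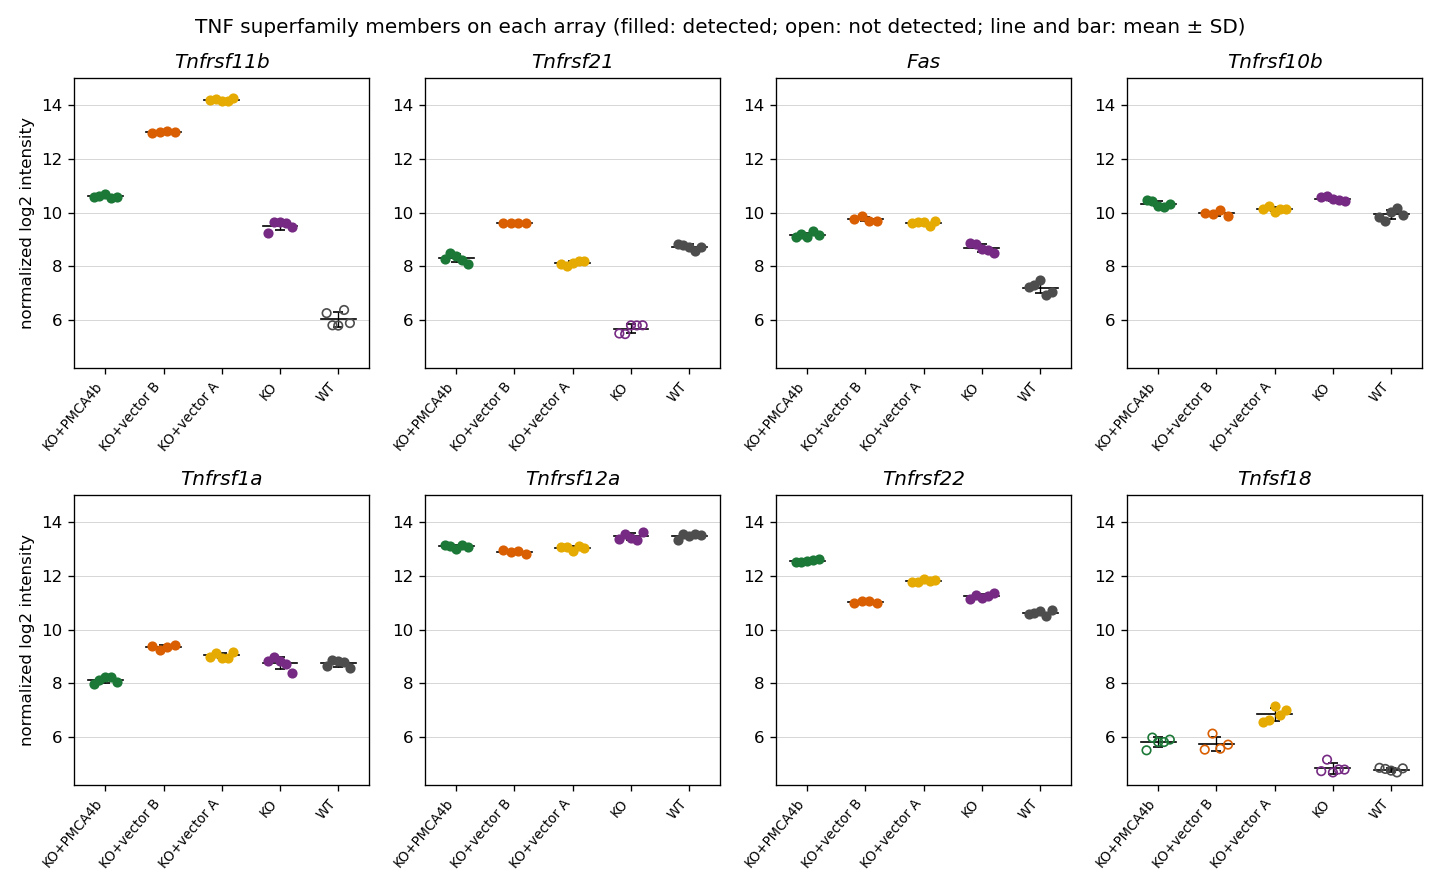
Normalized log2 intensity (y axis) of the 8 TNF superfamily members with a kept probe, one point per array in the 5 groups; filled points were detected, open points were not, and the line and bar give the mean ± SD. Tnfrsf11b was undetected on the 5 WT arrays and highest with vector A, and Tnfrsf21 was undetected on the 5 KO arrays alone.

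Tnfrsf21, also called death receptor 6, showed a different pattern, with KO cells alone lacking a detectable level. It read 8.27, 8.48, 8.37, 8.21 and 8.09 in PMCA4b cells, 9.62, 9.61, 9.61 and 9.59 in vector B cells, and 8.09, 8.01, 8.10, 8.18 and 8.18 in vector A cells. It read 5.49, 5.47, 5.79, 5.79 and 5.80 in KO cells, detected on 0 of 5 arrays, and 8.82, 8.78, 8.71, 8.58 and 8.70 in WT cells. Vector B cells were highest, WT cells next, and PMCA4b and vector A cells overlapped below them. KO cells were at least 4.93-fold below WT cells (limma adjusted p = 1.89e-20). Vector cells were at least 5.44-fold above KO cells (limma adjusted p = 2.93e-22), and in single comparisons this bound was 9.14-fold for vector B and 3.24-fold for vector A. Tnfrsf21 was detected on every array of the PMCA4b, vector B, vector A and WT cells.

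The comparison of PMCA4b with vector cells gave no single direction for Tnfrsf21. Against the average of both vectors it fell by 0.57 on the log2 scale (SE 0.065, limma adjusted p = 2.73e-08). Against vector B alone the log2 difference was -1.32 (limma adjusted p = 3.6e-13), and against vector A alone it was 0.18, higher in PMCA4b cells (limma adjusted p = 0.0341). Pooling the 9 vector arrays in an exact two-sided permutation test gave p = 0.219, where 0.0005 is the smallest p possible. Vector B cells were 2.82-fold above vector A cells (log2 1.50, limma adjusted p = 2.65e-13), and the log2 difference was 1.46 with the column set as a block. Within set 3, which holds vector A, PMCA4b minus vector was -0.02.

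Fas, the receptor of Fas ligand, was lowest in WT cells. It read 9.08, 9.19, 9.07, 9.30 and 9.16 in PMCA4b cells, 9.77, 9.87, 9.69 and 9.69 in vector B cells, and 9.60, 9.64, 9.64, 9.49 and 9.69 in vector A cells. It read 8.86, 8.83, 8.64, 8.61 and 8.48 in KO cells and 7.24, 7.32, 7.48, 6.94 and 7.04 in WT cells. The KO-derived groups all lay above WT cells without overlap, and the KO arrays lay below those of the 3 electroporated groups. Fas rose 2.79-fold in KO over WT cells (log2 1.48, SE 0.085, limma adjusted p = 3.97e-13), between 1.41 and 1.57 on the log2 scale within single column sets. It was 2.00-fold higher in vector than in KO cells (limma adjusted p = 2.43e-11) and 1.44-fold lower in PMCA4b than in vector cells (limma adjusted p = 1.07e-06). On the dimmer kept probe of Fas the difference of vector from KO cells was 1.45-fold (limma adjusted p = 0.000501). That probe gave a log2 difference of 1.33 for KO against WT cells (limma adjusted p = 2.39e-08, detected on 1 of 5 WT arrays). For PMCA4b against vector cells it gave -0.06 (limma adjusted p = 0.672), so the lower level in PMCA4b cells rests on 1 probe.

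Tnfrsf10b, the mouse receptor for TRAIL that signals death, rose in KO cells on the 3 kept probes that were detected in both groups. Its brightest probe averaged 10.5 ± 0.0748 in KO cells and 9.93 ± 0.179 in WT cells (SD, n = 5 each), a 1.51-fold rise (limma adjusted p = 1.72e-07). Another 2 probes gave log2 differences of 0.59 and 0.76 for the same comparison (limma adjusted p at most 5.43e-08). The dimmest probe was detected on 3 of 5 KO arrays and 0 of 5 WT arrays, so it gives only a bound, at least 1.07-fold higher in KO cells. The brightest probe fell by 0.47 on the log2 scale in vector against KO cells (limma adjusted p = 4.84e-07), but the other 3 probes gave -0.018, -0.059 and -0.14 (limma adjusted p from 0.0621 to 0.877). PMCA4b cells averaged 10.3 ± 0.103 (SD, n = 5) and overlapped with KO and with vector A cells. Against the vector average the log2 difference was 0.28 (limma adjusted p = 0.000307), called on 2 of the 4 probes.

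Tnfrsf1a, the main receptor for TNF itself, did not pass the test between KO and WT cells but was lowest in PMCA4b cells. It read 7.98, 8.13, 8.24, 8.23 and 8.06 in PMCA4b cells, 9.37, 9.24, 9.34 and 9.43 in vector B cells, and 8.99, 9.11, 8.95, 8.95 and 9.17 in vector A cells. It read 8.81, 8.96, 8.82, 8.73 and 8.38 in KO cells and 8.63, 8.87, 8.82, 8.79 and 8.56 in WT cells. PMCA4b arrays lay below every other array, and KO and WT arrays overlapped. Tnfrsf1a was 2.09-fold lower in PMCA4b than in vector cells (log2 -1.06, SE 0.076, limma adjusted p = 6.4e-12), and its other 2 probes gave -1.16 and -1.14. Vector cells were 1.36-fold above KO cells (limma adjusted p = 1.23e-05). KO minus WT was 0.0054 on the log2 scale (95% interval -0.17 to 0.18, limma adjusted p = 0.96). The 1.24-fold higher level of vector B over vector A cells (limma adjusted p = 0.00608) was not called with the column set as a block (log2 0.059, limma adjusted p = 0.682).

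Tnfrsf22, a mouse decoy receptor for TRAIL, was highest in PMCA4b cells. It read 12.54, 12.50, 12.57, 12.58 and 12.65 in PMCA4b cells, 11.00, 11.07, 11.05 and 10.98 in vector B cells, and 11.76, 11.78, 11.87, 11.82 and 11.85 in vector A cells. It read 11.15, 11.30, 11.18, 11.25 and 11.35 in KO cells and 10.57, 10.62, 10.70, 10.52 and 10.72 in WT cells. No groups overlapped, and the order from high to low was PMCA4b, vector A, KO, vector B and WT. Tnfrsf22 rose 2.21-fold in PMCA4b over vector cells (log2 1.15, SE 0.042, limma adjusted p = 2.14e-17), and its second probe gave a log2 difference of 1.53. It rose 1.54-fold in KO over WT cells (limma adjusted p = 9.44e-11), with 0.69 on the log2 scale from the second probe. The vector groups fell on opposite sides of KO cells, with a log2 difference of -0.22 for vector B (limma adjusted p = 0.000499) and 0.57 for vector A (limma adjusted p = 1.85e-10). Their average difference of 0.17 (limma adjusted p = 0.000831) therefore describes neither. Tnfrsf22 has a close relative, Tnfrsf23, beside it on chromosome 7, whose probe was detected on 0 of 24 arrays, and cross-hybridisation between them was not tested.

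Tnfrsf12a, the receptor of TWEAK also called Fn14, stayed between 12.82 and 13.64 on all 24 arrays. It averaged 13.1 ± 0.0600 in PMCA4b cells (SD, n = 5), 12.9 ± 0.0586 in vector B cells (SD, n = 4), 13.1 ± 0.0731 in vector A cells (SD, n = 5), 13.5 ± 0.128 in KO cells (SD, n = 5) and 13.5 ± 0.0953 in WT cells (SD, n = 5). KO minus WT was -0.018 on the log2 scale (95% interval -0.14 to 0.10, limma adjusted p = 0.804). Vector cells were 1.41-fold below KO cells without overlap (limma adjusted p = 7.83e-09). PMCA4b minus vector was 0.13 (limma adjusted p = 0.0303), and against vector A alone 0.048 (limma adjusted p = 0.461). The last value was not called. The call against both vectors was lost without PMCA4b replicate 1, 2 or 4, vector A replicate 3 or vector B replicate 4, with limma adjusted p from 0.0540 to 0.0772.

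Tnfsf18, the ligand of the receptor GITR, was the only ligand with a kept probe, and it was detected in vector A cells alone. It read 6.56, 6.64, 7.15, 6.82 and 6.99 in vector A cells, close to the detection limit of 6.16 to 6.57. It ranged from 5.50 to 5.97 in PMCA4b cells, from 5.52 to 6.12 in vector B cells, from 4.67 to 5.15 in KO cells and from 4.67 to 4.85 in WT cells, all undetected. PMCA4b cells were at least 1.27-fold below vector A cells. Vector B cells were at least 1.45-fold below them, and vector A cells at least 1.34-fold above KO cells. The probe passed the detection filter only through vector A cells. That it differed there was thus fixed by the filter, and p-values for these differences are left out. The PMCA4b, KO and WT arrays that share column set 3 with vector A were undetected as well.

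**Figure D2:**
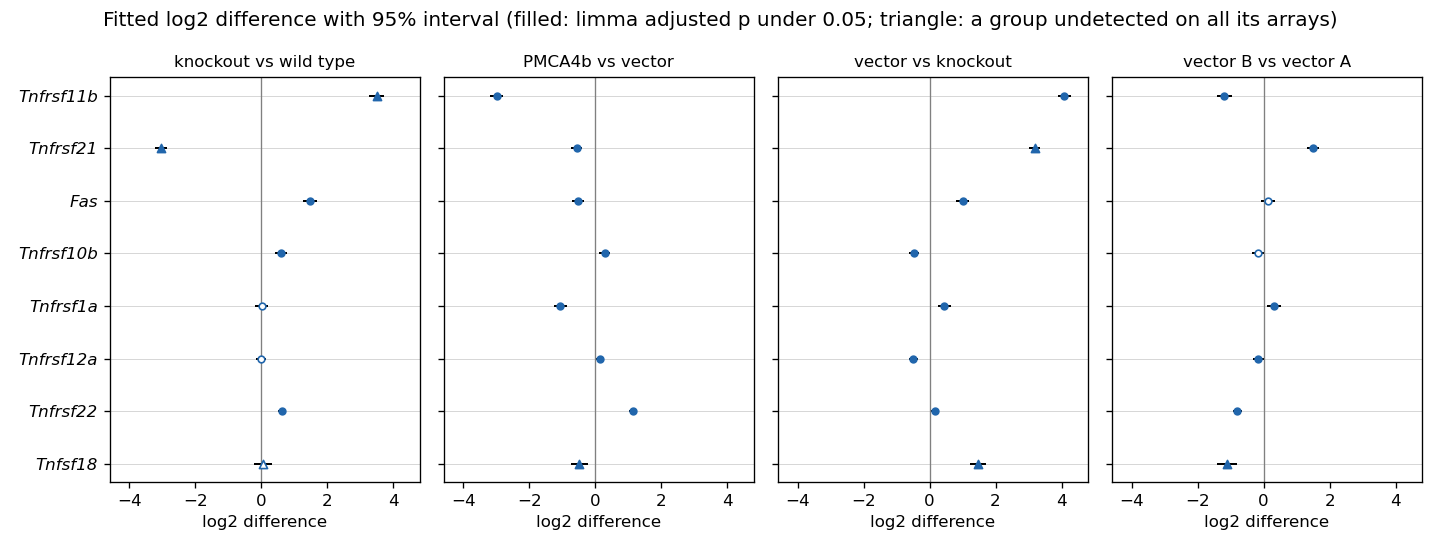
Fitted log2 difference (x axis) of each member in the 4 comparisons, first-named group minus second, with bars for the 95% interval; filled points had a limma adjusted p under 0.05. Triangles mark pairs in which a group, or both, was undetected on all its arrays, where the place on the axis is no measured size and at most a bound holds. Tnfrsf11b lies at -3.00 for PMCA4b against vector, and Tnfrsf22 at 1.15.

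The other 26 members gave no level. Of 22 receptors on the array, 7 had a kept probe, 14 were detected on 0 of 24 arrays, and Cd40 was detected on 1 array. Of 12 ligands, Tnfsf18 had a kept probe, 10 were detected on no array, and Tnfsf9 was detected on 2 arrays. The undetected ligands include Tnf, Tnfsf10 (TRAIL), Tnfsf11 (RANKL) and Tnfsf12 (TWEAK), the partners of the receptors described above. The second TNF receptor, Tnfrsf1b, and the RANKL receptor, Tnfrsf11a, were undetected too. Not detected means only that these probes were not above background.

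As a description of the 8 members, 5 of 8 were called in KO against WT cells (4 higher, 1 lower), where 57.7% of the 7675 genes tested were called (26.6% higher and 31.1% lower). All 8 were called in PMCA4b against vector cells (3 higher, 5 lower), against 78.8% of genes (38.3% higher and 40.5% lower). All 8 were called in vector against KO cells (6 higher, 2 lower), against 74.4% of genes (39.6% higher and 34.8% lower). Of the 8, 6 were called in vector B against vector A cells (2 higher, 4 lower), against 53.4% of genes (27.9% higher and 25.5% lower). Against single vectors, 7 of 8 were called in PMCA4b against vector A cells, where 78.8% of genes were, and 7 of 8 in PMCA4b against vector B cells, where 72.2% were. In vector A against KO cells and in vector B against KO cells 8 of 8 were called, where 75.1% and 67.2% of genes were. With calls this common, the number of members called says little about the family. In vector B against vector A cells, Tnfrsf1a and Tnfrsf12a were not called with the column set as a block. Tnfsf18 is in these counts although its calls that involve vector A cells were fixed by the detection filter. Its call in vector B against KO cells (limma adjusted p = 1.05e-06) lies between groups that were both undetected on all arrays. Without Tnfsf18, of 7 members, 4 were higher and 1 lower in KO against WT, 3 and 4 in PMCA4b against vector, 5 and 2 in vector against KO, and 2 and 3 in vector B against vector A. The median log2 difference of those 7 was 0.59, -0.52, 0.45 and -0.16 in the same order. The median log2 difference of the 8 members and of all genes was 0.32 and -0.04 for KO against WT cells, -0.50 and -0.01 for PMCA4b against vector, 0.72 and 0.03 for vector against KO, and -0.16 and 0.003 for vector B against vector A. The comparisons of PMCA4b and of KO cells with vector cells share the vector arrays, and those of KO cells share the KO arrays.

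Of the 5 members with several kept probes, Tnfrsf1a had 3 probes that gave PMCA4b minus vector differences of -1.16 to -1.06, and the second probe of Tnfrsf22 kept the group order of the first. The second probe of Tnfrsf21 read 4.93 ± 0.149 in KO cells and 6.12 ± 0.470 in WT cells (SD, n = 5 each). It was detected on 4 of 4 vector B arrays, 1 of 5 WT arrays and none of the other arrays, so it adds nothing on KO against WT cells.

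**Figure D3:**
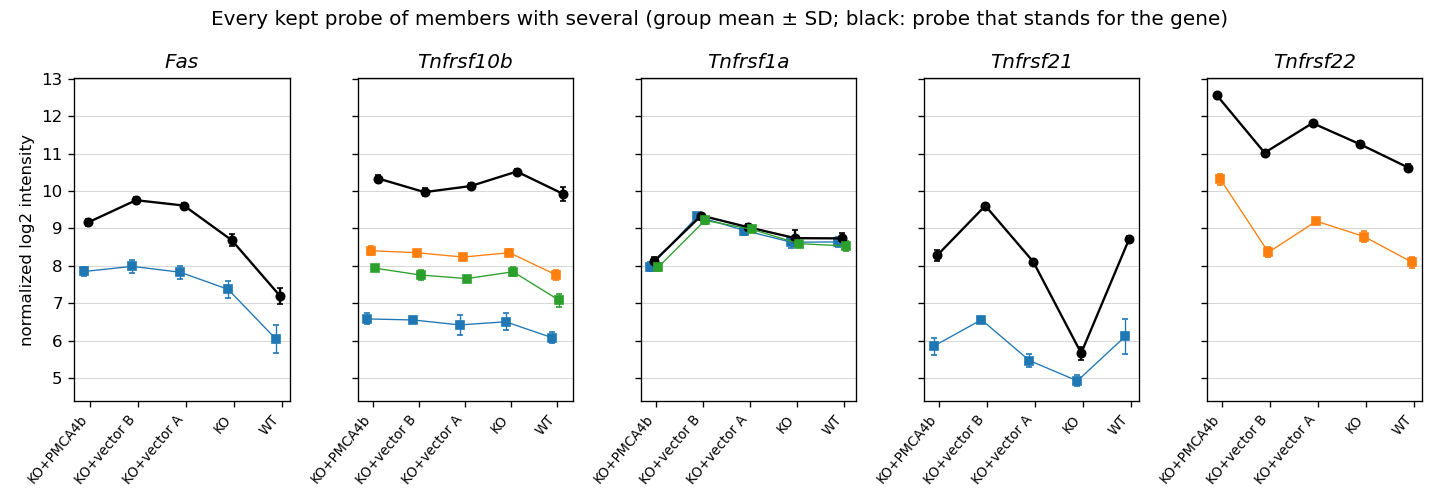
Group mean ± SD of normalized log2 intensity (y axis) for every kept probe of the 5 members with several; the black line is the probe that stands for the gene, and lines only join the groups of a probe. The 4 probes of Tnfrsf10b all have their lowest mean in WT cells, though on the black one WT arrays overlap with both vector groups. The 3 probes of Tnfrsf1a lie lowest in PMCA4b cells.

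Further genes of the pathway were taken from lists of known components. Of 11 superfamily genes under other names, 3 were measured. Ltbr, the lymphotoxin beta receptor, averaged 7.32 ± 0.252 in PMCA4b cells (SD, n = 5), 8.68 ± 0.0986 in vector B cells (SD, n = 4) and 8.45 ± 0.0988 in vector A cells (SD, n = 5), and fell 2.38-fold in PMCA4b against vector cells (limma adjusted p = 1.05e-11). It was 1.63-fold higher in vector than in KO cells (limma adjusted p = 2.73e-07). Like Tnfrsf1a it did not pass the test between KO and WT cells (log2 -0.04, limma adjusted p = 0.745). Eda2r and Relt were near the detection limit, with log2 differences of 0.46 (limma adjusted p = 0.0205) and -0.06 (limma adjusted p = 0.77) for PMCA4b against vector cells. Eda2r averaged 6.88 ± 0.280 in PMCA4b cells (SD, n = 5) and 6.80 ± 0.219 in vector B cells (SD, n = 4). In vector A cells it averaged 6.05 ± 0.353 (SD, n = 5) and was detected on 1 of 5 arrays, so the 0.46 averages unlike vector groups.

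Of 15 measured adaptors and ubiquitin ligases, 1 was higher and 7 lower in KO against WT cells. Traf6, an adaptor and ubiquitin ligase, fell 1.35-fold (limma adjusted p = 2.23e-06), and Traf2 was undetected in KO cells and at least 1.10-fold lower. The single higher one, Tnfaip3, was undetected in both groups and has no fold there. In PMCA4b against vector cells 7 were higher and 7 lower. Ripk3, the kinase of necroptosis, rose 2.61-fold (limma adjusted p = 1.43e-10), whereas Tnfaip3, the NF-kB inhibitor A20, fell 1.74-fold (limma adjusted p = 1.16e-10) and Tank, a TRAF-binding protein, 1.42-fold. In vector against KO cells 8 were higher and 2 lower, with Tnfaip3 at least 2.26-fold higher (limma adjusted p = 7.65e-18) and the ubiquitin ligase Birc2 1.75-fold higher. In vector B against vector A cells 5 were higher and 1 lower. Of all genes tested, 26.6% were higher and 31.1% lower in KO against WT, 38.3% and 40.5% in PMCA4b against vector, 39.6% and 34.8% in vector against KO, and 27.9% and 25.5% in vector B against vector A.

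Of 16 measured kinases and NF-kB subunits, 3 were higher and 5 lower in KO against WT cells, 4 higher and 9 lower in PMCA4b against vector cells, 10 higher and 2 lower in vector against KO cells, and 8 higher and 0 lower in vector B against vector A cells. Nfkbiz, a nuclear regulator of NF-kB target genes, fell 2.31-fold in KO against WT cells (limma adjusted p = 1.04e-13) and 2.03-fold in PMCA4b against vector cells, and was 2.81-fold higher in vector than in KO cells. In PMCA4b against vector cells Tbk1, a kinase of innate immune signalling, fell 1.76-fold and Tab1, a partner of the kinase Map3k7, rose 1.85-fold. In vector against KO cells Ikbkg, the regulatory subunit of the IkB kinase complex, was 1.85-fold higher and the inhibitor Nfkbia 1.73-fold lower. Each of these kinase-list differences had a limma adjusted p of 3.65e-11 or less. The median log2 difference of this list was -0.07, -0.34, 0.45 and 0.23 in the 4 comparisons in the order just given, beside medians of all genes from -0.036 to 0.033. Of all genes tested, 57.7%, 78.8%, 74.4% and 53.4% were called in these comparisons, in either direction. Bcl3, on this list, was detected on 4 of 4 vector B arrays, 1 of 5 WT arrays and no other array. It passed the detection filter only through vector B cells. That it was higher there than in vector A cells (log2 0.57, the largest of the list) was thus fixed by the filter. The counts and the median given above for vector B against vector A cells include Bcl3. In that comparison 27.9% of all genes tested were higher and 25.5% lower.

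Of 8 measured genes of the death branch, 2 were higher and 2 lower in KO against WT cells, with the effector Casp6 1.76-fold lower (limma adjusted p = 7.5e-08). In PMCA4b against vector cells 3 were higher and 5 lower. Casp8, the protease that death receptors activate first, rose 1.60-fold (limma adjusted p = 2.21e-08), and Faf1, a Fas-binding protein, fell 1.61-fold (limma adjusted p = 4.2e-14). In vector against KO cells 3 were higher and 2 lower, and in vector B against vector A cells likewise 3 and 2. Of 4 measured genes of ligand and receptor processing, 1 was higher and 3 lower in PMCA4b against vector cells, among them Sppl2a, an intramembrane protease that cuts TNF, 1.64-fold lower (limma adjusted p = 8.86e-10), and the shedding protease Adam17, 1.30-fold lower (limma adjusted p = 6.48e-07). In KO against WT cells 2 were higher and 1 lower, in vector against KO cells 1 higher and 1 lower, and in vector B against vector A cells 3 higher and 0 lower. For both lists the shares of all genes called were the same 57.7% in KO against WT, 78.8% in PMCA4b against vector, 74.4% in vector against KO and 53.4% in vector B against vector A.

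**Figure D4:**
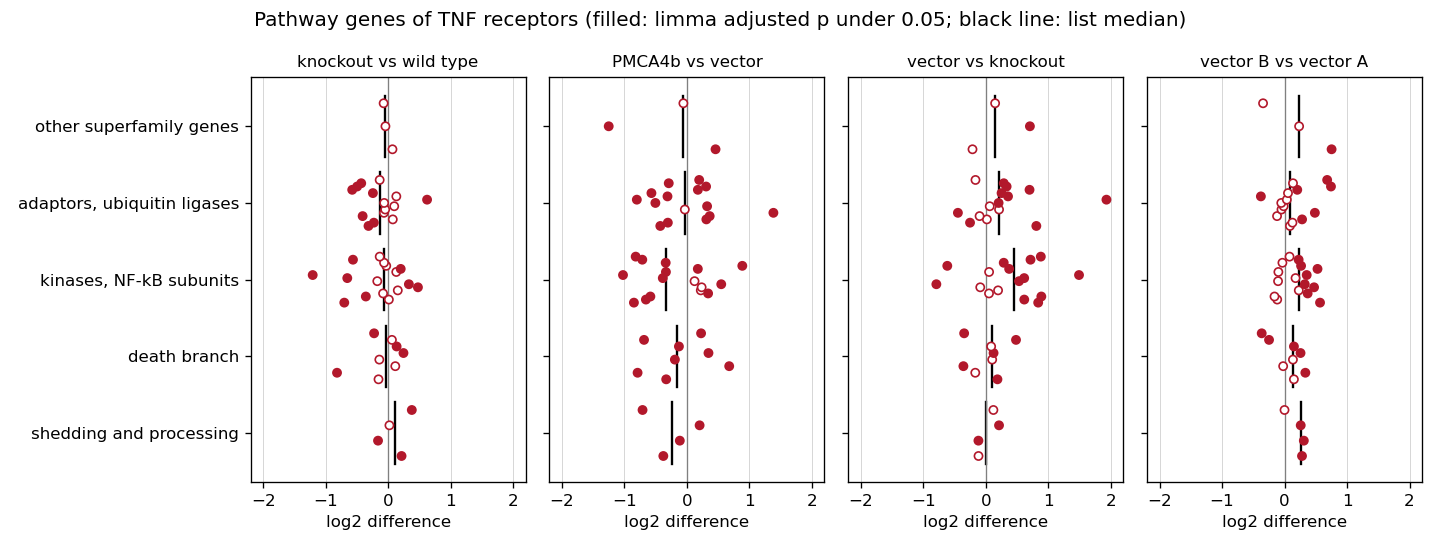
Log2 difference (x axis) of each measured gene of the 5 pathway lists in the 4 comparisons, first-named group minus second; filled points had a limma adjusted p under 0.05 and black lines mark list medians. In vector against knockout cells 10 of 16 kinases and NF-kB subunits were higher and 2 lower, where 39.6% of all genes were higher and 34.8% lower, and Tnfaip3 lies furthest right among the adaptors.

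Markers of other cell types moved between the groups as well. Of 8 fibroblast markers 6 were kept, and their summed linear level ranged from 11198 to 12931 in PMCA4b cells, 15925 to 17217 in vector B cells, 14202 to 15161 in vector A cells, 36503 to 40295 in KO cells and 4687 to 5647 in WT cells. The brightest markers carry this sum, and single markers differed in direction. In KO against WT cells 5 were higher and 1 lower, where 57.7% of all genes tested were called in either direction. In PMCA4b against vector 1 was higher and 4 lower, where 78.8% of genes were called. In vector against KO 2 were higher and 4 lower, where 74.4% were called. Thy1 was 41.8-fold higher in KO than in WT cells, whereas Pdgfra was 1.38-fold lower. Dcn was 7.82-fold higher in vector than in KO cells, and Pdgfra 5.88-fold lower. The 3 kept smooth muscle markers summed to 32422 to 38835, 15352 to 16188, 15333 to 16409, 65024 to 68854 and 23766 to 28153 in the same order, a sum that Acta2 carries. Tagln averaged 10.1 ± 0.148 in KO cells and 8.50 ± 0.256 in WT cells (SD, n = 5 each) and was undetected on all 9 vector arrays. Smtn did not pass the test between KO and WT cells (log2 -0.054). Endothelial markers (8 of 8) were detected on no array, and of 10 leukocyte markers only Cd14 was kept, while Ptprc, Itgam, Lyz2, Cd52 and Laptm5 were undetected throughout. Cd14 averaged 8.60 ± 0.0468 in PMCA4b cells (SD, n = 5), 8.99 ± 0.0777 in vector B cells (SD, n = 4), 8.48 ± 0.0730 in vector A cells (SD, n = 5), 6.85 ± 0.0995 in KO cells and 8.12 ± 0.157 in WT cells (SD, n = 5 each), lowest in KO cells as Tnfrsf21 was. The part of these shifts in the differences of the superfamily genes was not tested, and a change in the mix of cells cannot be told apart from a change per cell in RNA of whole cultures.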

How the data were processed

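For each array the deposited table gives every probe an intensity and a detection p-value. From 28.3% to 30.9% of an array's intensities lie below 0, as after background subtraction. A second deposited table holds the authors' log2 values, which share one set of quantiles and rank as the same array's intensities do (Spearman 1). Biotin-labelled cRNA was hybridised, per the labels' protocols. No source used here names the scanner software or how the authors normalized.

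Intensities were corrected with neqc of limma 3.58.1 (R 4.3.3, offset 16, quantile normalization). A probe was kept where 4 or more arrays detected it at p below 0.01 (11139 probes), and the brightest named probe stood for each of 7675 genes. A linear model with 5 group means was fitted to all 24 arrays (19 residual degrees of freedom), with limma's moderated tests and Benjamini-Hochberg adjustment over all genes, and called at 0.05. The vector groups were averaged with equal weight. On simulated data for KO against WT cells with 7675 genes, the fit called 89 of 100 genes changed by 0.5 (log2), 98 of 100 changed by 1, and 10 unchanged genes. The simulation drew independent noise for each array and changed far fewer genes than the 57.7% called here. Deviations of same-numbered arrays within a column set correlated by up to 0.47. The simulation therefore checks the fit and does not give the error rate of these data. A group undetected on all its arrays has only a bound ("at least"). Python 3.11.15 with matplotlib 3.10.9 drew the figures.

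Every member with a kept probe is named, with per-array values for those called with an absolute log2 difference of at least 1 in some comparison, and at most 3 genes per pathway list and comparison by smallest adjusted p. Members and lists were chosen with earlier results of these data known. Alternatives covered normalization, offset, filter, probe choice, samples fitted, blocks, single vectors and each array left out. Within-set fits were added after seeing the data.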

Additional observations from a re-analysis of the deposited data

Results flagged for a closer look

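In KO cells, replicate 2 of Tnfsf18 read 5.15 on the log2 scale, apart from the other 4 KO arrays at 4.67 to 4.78. All 5 KO arrays were undetected for this probe, so the gap lies below the detection limit. It was the 1 outlying array among 40 sets of member and group examined, where chance gives about 1 in 20.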

How the results depend on the processing

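Leaving out each array in turn left 4 members higher and 1 lower in KO against WT cells, 2 to 3 higher and 5 lower in PMCA4b against vector, 6 and 2 in vector against KO, and 2 higher and 3 to 5 lower in vector B against vector A. Genes called ranged from 4230 to 4461, 5895 to 6085, 5534 to 5747 and 3757 to 4157 in these comparisons. The uncalled KO minus WT differences changed sign over those fits (Tnfrsf1a -0.050 to 0.10, Tnfrsf12a -0.061 to 0.011, Tnfsf18 -0.038 to 0.081), and Tnfrsf1a read -0.038 with median scaling. Within column sets 1, 2 and 3, with fewer arrays and only 1 KO and 1 WT array in set 3, whose spread is taken from the other groups, 2743, 2790 and 2216 genes were called in KO against WT cells, 1323, 1335 and 1095 of them higher. There Tnfrsf12a read 0.018 in set 1 and 0.14 in set 3, Tnfrsf1a -0.028 in set 2 and -0.19 in set 3, and Tnfsf18, undetected in both groups, -0.046 in set 3. In PMCA4b against vector within set 2, Tnfrsf10b (0.26, limma adjusted p = 0.0570) and Tnfrsf12a (0.22, limma adjusted p = 0.0729) lost their calls. Within set 3, with 1 PMCA4b array, these members read 0.18 and 0.021. Tnfrsf12a also lost its call in this comparison within set 1 (0.21, limma adjusted p = 0.147) and with no filter (limma adjusted p = 0.0639). In the same comparison Tnfsf18 read 0.17 in set 2 and 0.069 against vector B alone. Tnfrsf21 read 0.18 against vector A alone. Tnfrsf22 in vector against KO cells read -0.22 with vector B alone, -0.19 in set 1, -0.20 in set 2 and -0.0029 on its dimmer probe. Fitting every probe on its own and taking the dimmest for each gene lost the calls of Fas (-0.059), Tnfrsf10b (0.094) and Tnfrsf21 (-0.16) in PMCA4b against vector. In vector against KO it lost those of Tnfrsf10b (-0.018) and Tnfrsf22. The same fit turned Tnfrsf10b to 0.13 in vector B against vector A. With the column set as a block, Fas read -0.011 in vector B against vector A and Tnfrsf1a lost its call (log2 0.059, limma adjusted p = 0.682). Tnfrsf12a lost its call too (log2 -0.090, limma adjusted p = 0.428), as it did with median scaling (limma adjusted p = 0.0577) and with no filter (limma adjusted p = 0.0761). In vector B against vector A cells Tnfrsf12a lost its call without vector A replicate 1, 2, 4 or 5 or vector B replicate 2, 3 or 4 (limma adjusted p from 0.0508 to 0.117), and Tnfrsf10b gained one without WT replicate 2 or 4 or vector B replicate 3 (lowest limma adjusted p 0.0421). The cause of these shifts was not tested.

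The replicate number as a block left the member counts as they were except in vector B against vector A, where Tnfrsf12a lost its call (log2 -0.15, limma adjusted p = 0.0561), and 4526 genes were called in KO against WT cells. Deviations of same-numbered KO and WT arrays correlated by 0.012 to 0.42, of which 2 of 5 exceeded 0.1. Between any groups, same-numbered arrays within a column set correlated by 0.0055 to 0.47 (median 0.074, 30 pairs). Arrays of a set with unlike numbers correlated by -0.063 to 0.13 (median 0.038, 36 pairs). The main fit did not take the numbers as pairs, and whether same-numbered arrays share a source was not tested.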

Other observations

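Tnfsf9, the ligand of the receptor 4-1BB, was detected on 2 of 5 WT arrays and on no array of the knockout-derived groups, and 1 of the 4 probes of Cd40 was detected on 1 PMCA4b array. Neither reached the 4 arrays needed for a test.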
